A study of Mus musculus with 16 samples.

Results

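The NF-kB transcription factor subunits and the kinases that feed into them were followed in mouse CD4-positive T cells. The genes named were Rela, Rel, Relb, Nfkb1 and Nfkb2, which encode the subunits, Map3k14, which encodes the kinase NIK, and Map3k8, which encodes the kinase TPL2. All probes that the array's annotation assigns to one of these 7 symbols were taken, which gave 6 of 25697 probes (6 of 16593 genes), 1 for each gene except Nfkb1. No probe of Nfkb1 was in the annotation used, and that gene was not analysed here. All 6 probes passed the filter on dim probes, a detection p under 0.05 on 4 or more of 16 arrays, and they were tested among 12344 probes.

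The RNA came from CD4-positive T cells of 4 MALT1-deficient C57BL/6 mice. Each mouse's cells were divided and given a retrovirus that carried either isoform A or isoform B of MALT1, or a mock retrovirus. They were then activated for 2.5 h through CD3, the signalling chains of the T cell receptor, and CD28, which costimulates it. Isoform A cells were also kept without stimulation and are called resting below. The 4 groups (isoform A resting, isoform A stimulated, isoform B stimulated and mock stimulated) each held 4 arrays, 1 per mouse, and all of them lacked the endogenous MALT1. MALT1 in the A and B groups therefore came from the retrovirus alone, mock cells had none by design, and neither mock nor isoform B cells were measured at rest.

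Rel family proteins share a DNA-binding domain and act as dimers. RelA and c-Rel are held in the cytoplasm by IkB proteins and are released when the T cell receptor, through the adaptor BCL10 and MALT1, activates the IKK kinases. RelB pairs with the product of Nfkb2, whose precursor is processed when NIK builds up in the cell, a route called the alternative pathway. TPL2 is held by the precursor made from Nfkb1 until IKK acts on it, and then activates the ERK kinases. MALT1 is both a scaffold and a protease, and RelB is one of the proteins it cleaves. The isoforms are splice forms of MALT1, of which isoform A includes an exon that isoform B lacks. The arrays measure mRNA, so protein release, processing and cleavage are not seen in them.

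Of 8 T cell markers, 7 were measured. Cd4 was above background on all 16 arrays, with a mean normalized log2 intensity of 6.90. Cd8a was above background on 0 arrays, whereas Cd8b1, Klrd1 and Nkg7 of the CD8 and cytotoxic list were above background on all 16. Their means were 11.69, 10.92 and 13.20, and levels of different probes are not compared. Gzma and Klrb1c of that list were above background on 10 and 5 arrays, and Ncr1 on 0. Of 5 measured genes in that list, 0 were called between the stimulated groups, and its summed linear intensity was 11287 to 19185 over all arrays. Of 8 listed macrophage and dendritic cell genes, Lyz2, Itgam, Adgre1 and Itgax were above background on 0 arrays. Ctss, the only one tested, was above background on all 16, and Csf1r, Emr1 and Cd68 had no probe. Median raw intensity was 121.8 to 138.8 per array, and 10247 to 11012 probes were above background on stimulated arrays against 11239 to 12085 on resting ones. The highest raw intensity was 34329 to 38404 on the arrays of mice 1 and 2 and 41735 to 43710 on those of mice 3 and 4, a split that crosses all 4 groups.

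Promoters were read from the RefSeq table of build GRCm38.p6, as windows from 250 bases before to 50 after each annotated start. For 4 of the genes 6 windows were read: 3 for Nfkb2 and 1 each for Rel, Rela and Map3k14. Those of Relb, Nfkb1 and Map3k8 were not read. The 3 windows printed are shown because they carry, in capitals, matches to the NF-kB (kappaB) consensus decamer, searched on both strands. The Rel window is chr11:23770920-23771219 on the minus strand. The Nfkb2 windows are chr19:46304487-46304786 and chr19:46305445-46305744, both on the plus strand. All are written 5′ to 3′ along the gene.
Rel promoter: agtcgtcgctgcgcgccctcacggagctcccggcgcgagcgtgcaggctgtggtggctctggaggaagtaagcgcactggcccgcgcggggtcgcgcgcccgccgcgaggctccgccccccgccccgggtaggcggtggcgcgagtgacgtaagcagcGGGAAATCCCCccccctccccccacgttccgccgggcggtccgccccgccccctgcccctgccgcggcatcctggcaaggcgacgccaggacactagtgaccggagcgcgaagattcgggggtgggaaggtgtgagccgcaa
Nfkb2 first promoter: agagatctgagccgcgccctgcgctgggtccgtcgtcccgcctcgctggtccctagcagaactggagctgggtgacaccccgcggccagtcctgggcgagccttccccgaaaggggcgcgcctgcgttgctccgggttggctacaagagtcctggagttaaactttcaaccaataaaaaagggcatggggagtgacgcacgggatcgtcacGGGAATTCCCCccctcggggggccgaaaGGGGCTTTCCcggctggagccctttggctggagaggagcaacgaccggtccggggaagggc
Nfkb2 second promoter: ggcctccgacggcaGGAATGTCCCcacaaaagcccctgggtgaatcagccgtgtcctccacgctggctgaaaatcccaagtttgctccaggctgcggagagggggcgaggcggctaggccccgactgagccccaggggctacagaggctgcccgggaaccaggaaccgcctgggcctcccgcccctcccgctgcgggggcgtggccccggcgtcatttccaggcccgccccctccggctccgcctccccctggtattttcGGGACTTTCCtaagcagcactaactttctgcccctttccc
In the Rel window the decamer GGGAAATCCC began 92 bases before the start, with an overlapping match on the opposite strand. The first Nfkb2 window held GGGAATTCCC from 39 bases before the start, with an overlapping match on the opposite strand, and GGGGCTTTCC from 11 bases before it. The second Nfkb2 window held GGAATGTCCC, a match on the opposite strand, from 236 bases before the start and GGGACTTTCC from 10 bases past the start. The remaining Nfkb2 window overlaps the second and shares its GGGACTTTCC. The Rela and Map3k14 windows held no match. Of all windows in the table, 2779 of 32851 held the decamer (8.46%), or 2581 of 27025 genes (9.55%). These matches describe the letters of the windows, and whether any factor bound them was not measured.

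All 6 genes were higher in stimulated than in resting isoform A cells, by 2.20- to 32.3-fold. Rel, encoding the lymphoid subunit c-Rel, showed the largest difference of the 6, and Map3k14 the smallest. The same 6 genes were higher in stimulated mock cells, which lack MALT1, than in resting isoform A cells. Values below are background-corrected, quantile-normalized log2 intensities, differences are on that log2 scale, ± after a difference is the SE of the limma fit with n = 4 mice per group, and adjusted p is limma's with Benjamini-Hochberg adjustment over all 12344 probes. Each gene has 1 probe, so levels of different genes are not compared. In RNA of whole cell portions, more responding cells and more RNA per cell cannot be told apart.

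Rel read 4.86, 4.90, 4.70 and 5.00 in the resting cells of mice 1 to 4 and 9.80, 9.81, 9.80 and 10.10 in stimulated isoform A cells. In stimulated mock cells it read 9.75, 9.58, 9.62 and 9.93. The resting values were near background, with a detection p of 0.123 in mouse 3 and under 0.05 in the other mice, and all stimulated values lay far above them. Rel was 5.01 ± 0.12 higher after stimulation with isoform A (32.3-fold, adjusted p = 2.14e-15, higher in 4 of 4 mice), the 43rd largest difference of either sign among the tested probes. Because the resting signal was near background, the size depends on how background is treated: without background correction the difference was 2.97 ± 0.10 (adjusted p = 8.76e-15). From a raw intensity of 133.3 to 141.1 at rest, the probe reached 774.9 to 1201 on the 12 stimulated arrays.

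Rela, encoding the broadly expressed subunit that carries a strong transactivation domain, read 10.38, 10.19, 10.29 and 10.40 at rest. It read 12.14, 12.23, 12.33 and 12.19 in stimulated isoform A cells. All stimulated values lay above all resting ones, and the gene was 1.91 ± 0.09 higher (3.75-fold, adjusted p = 3.18e-12). Its spread between mice was similar in both groups, with an SD of 0.10 at rest and 0.08 after stimulation (n = 4).

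Relb and Nfkb2, the subunit pair of the alternative pathway, rose as well. Relb read 7.33, 6.95, 7.13 and 7.29 at rest and 9.78, 9.88, 10.05 and 9.97 in stimulated isoform A cells. Nfkb2 read 5.36, 5.47, 5.42 and 5.51 at rest and 8.08, 8.23, 7.82 and 7.69 in stimulated isoform A cells. Neither gene's groups overlapped. Relb was 2.75 ± 0.10 higher (6.71-fold, adjusted p = 1.84e-13) and Nfkb2 2.51 ± 0.11 higher (5.71-fold, adjusted p = 3.53e-12). Nfkb2 was also dim at rest, with a raw intensity of 154.7 to 168.1, and its difference was 1.25 ± 0.07 without background correction (adjusted p = 2.5e-11).

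Map3k8, whose product TPL2 links IKK to the ERK cascade, read 9.01, 9.03, 9.09 and 8.999 at rest and 11.71, 11.99, 12.02 and 11.89 in stimulated isoform A cells. Map3k14, whose product NIK drives Nfkb2 processing, read 7.36, 7.47, 7.20 and 7.16 at rest and 8.50, 8.26, 8.54 and 8.43 in stimulated isoform A cells. Resting and stimulated values did not overlap for either kinase gene. The difference was 2.87 ± 0.11 for Map3k8 (7.32-fold, adjusted p = 4.21e-13) and 1.14 ± 0.10 for Map3k14 (2.20-fold, adjusted p = 2.03e-08). Median scaling of the arrays, tried instead of quantile normalization, shifted the median of all probes by -0.21, and the Map3k14 difference was then 0.68 ± 0.17 (adjusted p = 0.00105).

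**Figure D1:**
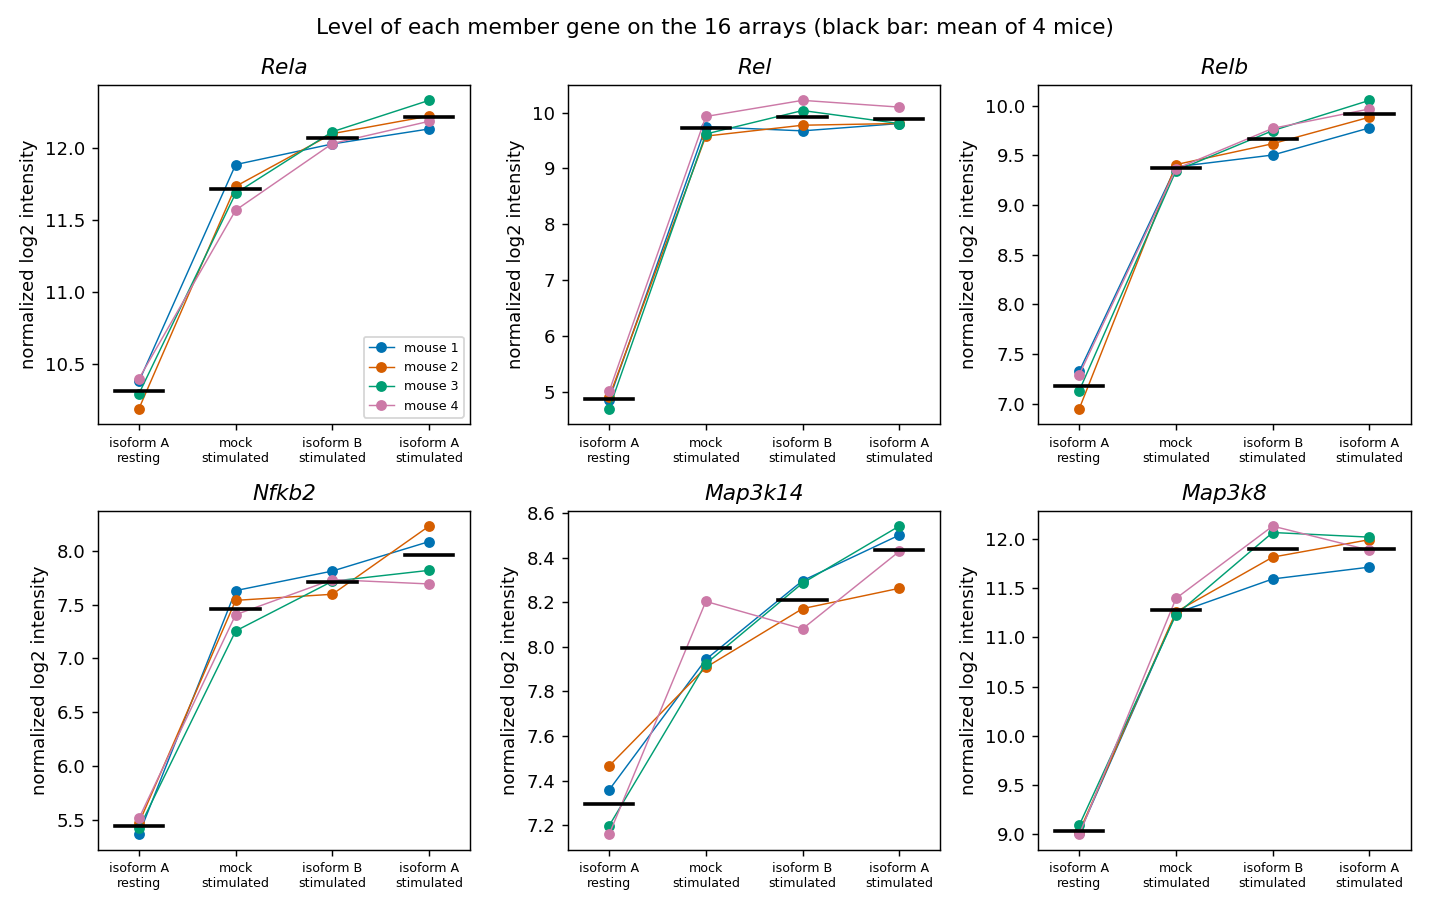
Normalized log2 intensity (vertical axis, a separate range for each gene) of the 6 genes in the 4 groups, with 1 point per mouse joined by lines and a black bar at the mean of 4 mice. Resting values lie below all stimulated values for each gene, from a mean of 4.87 at rest to at least 9.72 in the stimulated groups for Rel.

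The count of 6 of 6 called higher stands against a wide response: 31% of all 12344 probes were called higher in stimulated isoform A cells and 66% were called in either direction. Groups of 4 that did not overlap, with the stimulated group higher, were found for 28.4% of all probes and for all 6 genes here. The median difference of the 6 was 2.63, against 0.00 over all probes. Quantile normalization largely sets the median over all probes, here and in the comparisons below, and with median scaling it was -0.21 in this comparison. By size irrespective of sign, Map3k8 ranked 308th, Relb 356th, Nfkb2 479th, Rela 1057th and Map3k14 2942nd of the probes tested. The order of Nfkb2 and Rela depended on how background was treated: without background correction the difference was 1.25 for Nfkb2 and 1.82 for Rela. Marker genes moved with stimulation as well: the summed linear intensity of the 7 measured T cell markers was 33477 to 35343 at rest and 22005 to 23761 in stimulated isoform A cells, that of the 4 B cell genes 236 to 382 and 493 to 906, and that of the 2 erythroid genes 27.5 to 60.5 and 52.7 to 111. Of those B cell genes Cd74 and H2-Ab1 were called higher (H2-Ab1 lost without any of 5 single arrays, adjusted p up to 0.116). Cd79b, not well above background on any stimulated isoform A array, was at least 1.17-fold lower. It was above background on 4 resting arrays and needed them to pass the filter on dim probes, so no p-value is given for it. The part of these marker genes in the rise of the 6 genes was not tested.

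The same genes were then read in cells without MALT1. Stimulated mock cells against resting isoform A cells differ in both vector and stimulation, and the 2 comparisons with resting cells share those resting arrays, so their values are only set side by side. In mock cells Rela read 11.89, 11.74, 11.69 and 11.57, Relb 9.38, 9.41, 9.35 and 9.36, and Nfkb2 7.63, 7.54, 7.25 and 7.41. Map3k14 read 7.94, 7.91, 7.92 and 8.20 in these cells, and Map3k8 11.25, 11.26, 11.23 and 11.40. Every mock value lay above every resting value of its gene, as 29.1% of all probes did. The difference from resting cells was 4.85 ± 0.12 for Rel (28.9-fold), 2.25 ± 0.11 for Map3k8 (4.76-fold), 2.20 ± 0.10 for Relb (4.60-fold), 2.01 ± 0.11 for Nfkb2 (4.04-fold) and 1.41 ± 0.09 for Rela (2.65-fold). These 5 had adjusted p-values of 1.85e-10 or lower. Map3k14 was 0.70 ± 0.10 higher (1.63-fold, adjusted p = 8.8e-06), a call that was lost with median scaling (0.24 ± 0.17, adjusted p = 0.238). All 6 were thus called higher, beside 31% of all probes, with a median of 2.11. Marker genes moved here too: Hba-a1 was 2.55 ± 0.51 higher in mock than resting cells (adjusted p = 0.000268), Car2, not well above background at rest, at least 3.41-fold higher (adjusted p = 1.79e-07), and the T cell gene Cd3g fell by 0.74 ± 0.10 (adjusted p = 2.5e-06). The summed intensity of the 7 T cell markers was 23376 to 24487 in mock cells, that of the 4 B cell genes 170 to 251 and that of the 2 erythroid genes 162 to 1017, and their part in this result was not tested. Without background correction the Rel and Nfkb2 differences were 2.83 and 0.92, both still called.

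**Figure D2:**
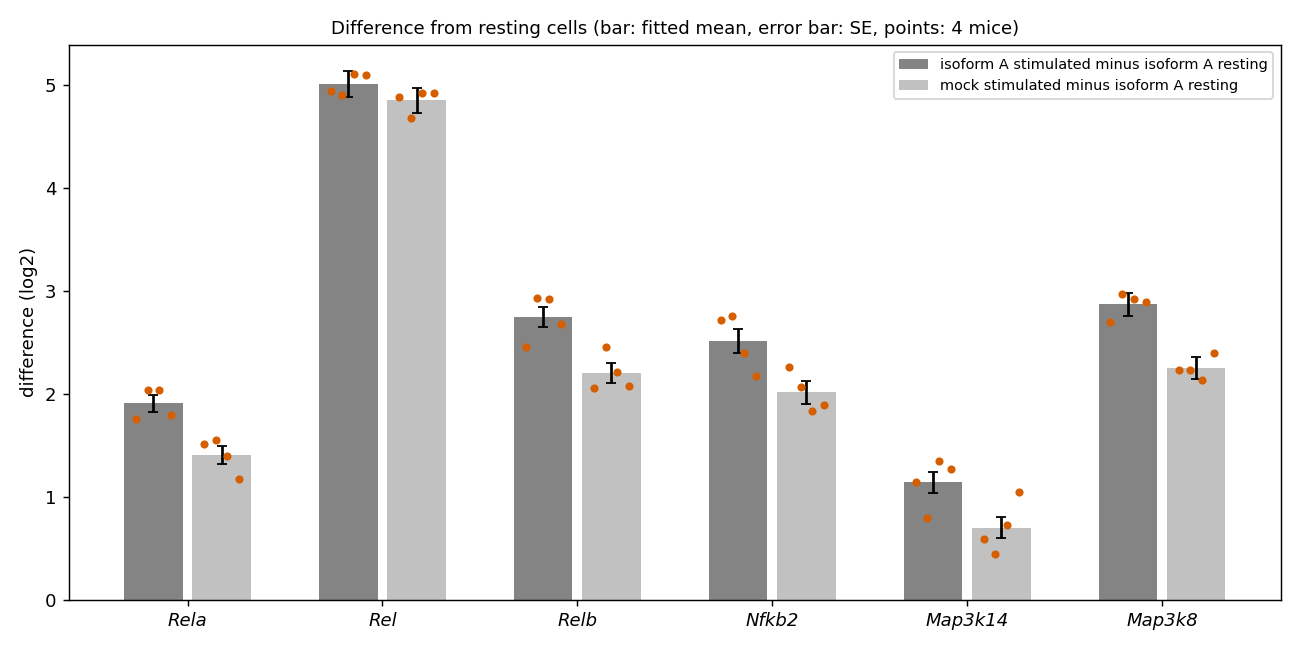
Difference from resting isoform A cells on the log2 scale (vertical axis) for the 6 genes, in stimulated isoform A cells (dark bars) and stimulated mock cells (light bars). Bars are fitted means of 4 mice, error bars SE and points single mice; each dark bar is the taller of its pair, by 0.16 for Rel and by 0.44 to 0.62 for the other 5.

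Isoform A and mock cells, both stimulated, were compared to ask what reconstituted MALT1 adds. Rela, Relb, Nfkb2, Map3k14 and Map3k8 were each 1.36- to 1.54-fold higher with isoform A, and Rel was not called. All 6 differences were positive in 4 of 4 mice, but the share of all probes with that pattern was not counted. Map3k8 differed by 0.62 ± 0.11 (1.54-fold, adjusted p = 0.00412), Relb by 0.55 ± 0.10 (1.46-fold, adjusted p = 0.00463) and Rela by 0.50 ± 0.09 (1.42-fold, adjusted p = 0.00346). Nfkb2 differed by 0.50 ± 0.11 (1.41-fold) and Map3k14 by 0.44 ± 0.10 (1.36-fold), each with an adjusted p of 0.0209. For these 5 genes the lowest isoform A value lay above the highest mock value. Rel differed by 0.16 ± 0.12 (1.12-fold, adjusted p = 0.544), with a 95% confidence interval from -0.10 to 0.42, and its groups overlapped.

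Against this, 2.34% of all probes were called higher with isoform A than mock, 1.78% were called lower, and 4.92% had isoform A values wholly above mock values. The 6 genes had a median difference of 0.50, where that of all probes was 0.00. The calls of Nfkb2 and Map3k14 were the least firm. Nfkb2 was no longer called without isoform A mouse 2 (adjusted p = 0.0509), mock mouse 3 (0.0678) or mock mouse 4 (0.0602). Map3k14 was no longer called without mock mouse 1 (adjusted p = 0.0518), mock mouse 2 (0.0569), mock mouse 3 (0.0584) or isoform A mouse 3 (0.074). With median scaling, the differences of Rela (0.55), Relb (0.57), Nfkb2 (0.49), Map3k14 (0.44) and Map3k8 (0.65) were of like size with larger errors, and of the 6 only Map3k8 was called, with an adjusted p of 0.0192 beside 0.0564 for Relb and 0.115 for Rela. Within mice 1 and 2, and then within mice 3 and 4, the mean difference was 0.37 and 0.63 for Rela, 0.43 and 0.66 for Relb, 0.57 and 0.42 for Nfkb2, 0.46 and 0.42 for Map3k14, and 0.60 and 0.64 for Map3k8.

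Marker lists of other cells moved in this comparison too. Of 4 measured B cell genes, Cd74 (1.65 ± 0.36, adjusted p = 0.0168) and H2-Ab1 (1.52 ± 0.33, adjusted p = 0.0156) were higher with isoform A than mock. The summed linear intensity of these 4 genes was 493 to 906 with isoform A, 292 to 1620 with isoform B and 170 to 251 in mock cells, and the defining B cell genes Cd79a and Cd22 were above background on at most 1 array. Both calls were lost without isoform A mouse 3 or 4 or mock mouse 4 (adjusted p up to 0.0599). Both measured erythroid genes were lower with isoform A (Hba-a1 fell by 2.32 ± 0.51, adjusted p = 0.016, or 0.0533 without isoform A mouse 3, and Car2 lost without any of 4 single arrays, up to 0.0762), with a summed intensity of 52.7 to 111 against 162 to 1017 in mock cells, and Alas2 was above background on 0 arrays. Their part in the results for the 6 genes was not tested.

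Isoform B, the shorter splice form, was then set against mock. Map3k8 read 11.59, 11.82, 12.07 and 12.13 with isoform B and was 0.62 ± 0.11 higher than in mock cells (1.54-fold, adjusted p = 0.00685, higher in 4 of 4 mice). It was the only one of the 6 called, where 0.745% of all probes were called higher, and with median scaling it missed the threshold (0.59 ± 0.15, adjusted p = 0.0614). Rela read 12.03, 12.10, 12.12 and 12.03 with isoform B, above all 4 mock values, and differed by 0.35 ± 0.09 (1.28-fold, adjusted p = 0.053). With the mouse as a block Rela was called (adjusted p = 0.0405), which made 2 of 6 where 1.8% of all probes were called higher.

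The other 4 genes were not called with isoform B. Relb read 9.50, 9.62, 9.75 and 9.77, all above the mock values, and differed by 0.29 ± 0.10 (adjusted p = 0.212). Nfkb2 read 7.81, 7.60, 7.72 and 7.73 and differed by 0.26 ± 0.11 (adjusted p = 0.397). Map3k14 read 8.30, 8.17, 8.29 and 8.08 and differed by 0.21 ± 0.10 (adjusted p = 0.438), with mouse 4 lower by 0.12. Rel read 9.67, 9.77, 10.04 and 10.22 and differed by 0.21 ± 0.12 (adjusted p = 0.588), with mouse 1 lower by 0.07. The groups of these last 3 genes overlapped. The 3 genes without overlap (Rela, Relb and Map3k8) compare with 3.69% of all probes whose isoform B values lay wholly above mock. The mean difference in mice 1 and 2, then in mice 3 and 4, was 0.45 and 0.79 for Map3k8 and 0.26 and 0.45 for Rela. Of 4 measured B cell genes, Cd74 (1.59 ± 0.36, adjusted p = 0.0368) and H2-Ab1 (1.63 ± 0.33, adjusted p = 0.0182) were higher with isoform B than mock too. Of 2 measured erythroid genes only Hba-a1 was called, and it fell by 2.92 ± 0.51 (adjusted p = 0.00596). It was above background on only 2 of 4 isoform B arrays, so the size of that fall is uncertain. With single arrays left out, the Cd74 call was lost in 10 of 16 cases (adjusted p up to 0.102) and that of H2-Ab1 in 3 (up to 0.0623).

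The 2 isoforms were compared directly, since a call against mock with one and not with the other does not show that they differ. By limma's test across all probes 0 of the 6 genes were called, where 17 probes were (0.138%, all of them higher with isoform A). At limma's unadjusted p under 0.05 there were 2, Relb and Map3k14, where 4.87% of all probes were higher with isoform A by the same rule. Relb was 0.26 ± 0.10 higher with isoform A (95% confidence interval 0.05 to 0.47, adjusted p = 0.362), in 4 of 4 mice and with no overlap between groups. Rela was 0.15 ± 0.09 higher (interval -0.03 to 0.33, adjusted p = 0.598), also in 4 of 4 mice with no overlap. Isoform A values wholly above isoform B values were found for 2.14% of all probes. Map3k14 differed by 0.22 ± 0.10 (interval 0.01 to 0.44, adjusted p = 0.466) and Nfkb2 by 0.24 ± 0.11 (interval -0.000587 to 0.48, adjusted p = 0.501). Map3k8 and Rel had means closest together: the difference was 0.00 ± 0.11 for Map3k8 (interval -0.23 to 0.23, adjusted p = 0.998) and -0.05 ± 0.12 for Rel (interval -0.31 to 0.22, adjusted p = 0.945). The sign of both depended on the setting, and that of Rel was positive with median scaling (0.01). In mice 1 and 2, then in mice 3 and 4, the mean difference was 0.15 and -0.15 for Map3k8 and 0.08 and -0.18 for Rel. For the others it was 0.45 and 0.03 (Nfkb2), 0.15 and 0.30 (Map3k14), 0.27 and 0.25 (Relb), and 0.11 and 0.19 (Rela).

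**Figure D3:**
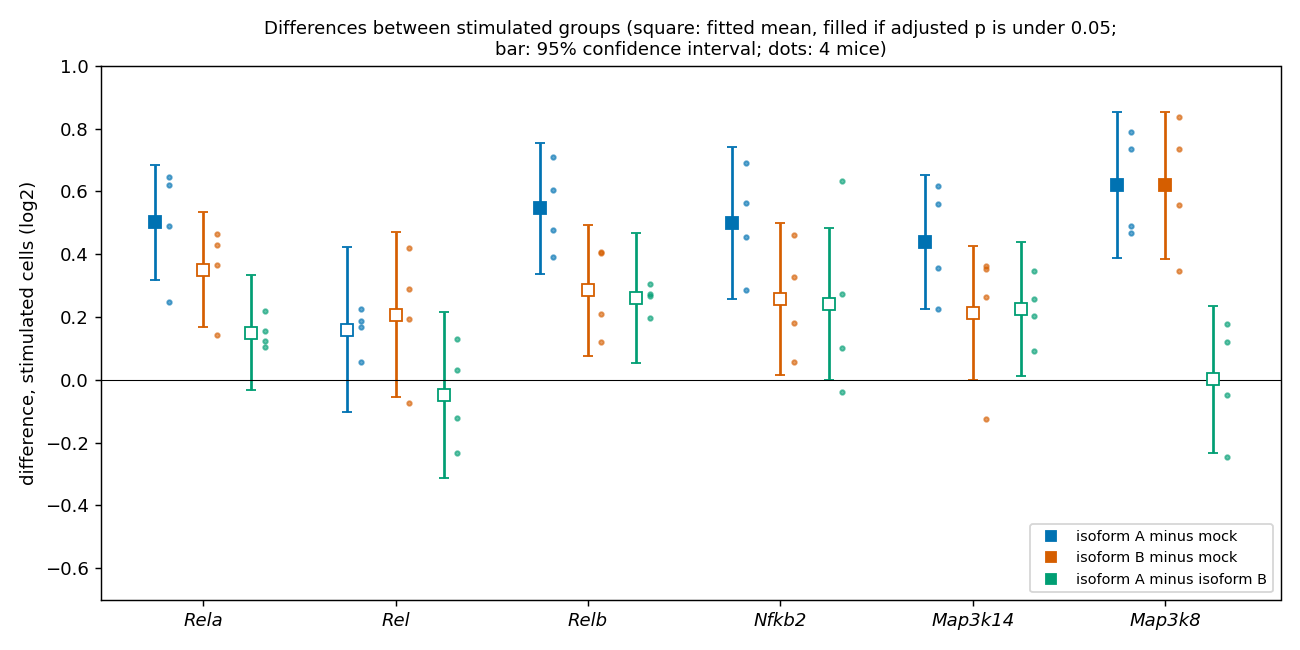
Differences between stimulated groups on the log2 scale (vertical axis) for the 6 genes: isoform A minus mock, isoform B minus mock and isoform A minus isoform B. Squares are fitted means, filled where the adjusted p is under 0.05, bars 95% confidence intervals and dots the 4 mice; Map3k8 has the same mean difference of 0.62 with either isoform, and 5 squares are filled for isoform A against mock.

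By mean level the order of the groups was resting, mock, isoform B and isoform A for Rela, Relb, Nfkb2 and Map3k14. For Relb and Rela no neighbouring groups in that order overlapped, although the 2 isoforms did not differ past the threshold. That order was read from these same values, and the share of all probes separated in such steps was not counted. Nfkb2 and Map3k14 had overlapping values between mock and isoform B and between the isoforms. For Map3k8 the isoforms shared a mean of 11.90, with an SD of 0.14 for isoform A and 0.25 for isoform B, above mock at 11.28 ± 0.08 (SD, n = 4). Rel had a mean of 9.93 ± 0.25 with isoform B, 9.88 ± 0.15 with isoform A and 9.72 ± 0.16 in mock cells, and these 3 overlapped (SD, n = 4).

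Over the 12 stimulated arrays, which share the contrast between vectors and the mice, Rela and Relb had the most similar profiles of the members (Pearson r = 0.906), followed by Relb and Map3k8 (0.871) and Rela and Map3k8 (0.817). Rel had lower values, with an r of 0.150 with Nfkb2, 0.313 with Rela and 0.327 with Map3k14. Among 8479 other genes on the same 12 arrays, the most similar were Tpbg, Cd40lg and Tnf for Rela (r of 0.957, 0.955 and 0.951), Yrdc, Tra2a and Tank for Relb (0.954, 0.949 and 0.948), and Frmd6, Tnf and Sphk1 for Map3k8 (0.931, 0.920 and 0.920). Nfkbie, an IkB inhibitor gene, was most similar to Map3k14 on these 12 arrays (0.907) and on all 16 (0.970). Itpkc was closest to Nfkb2 (0.938) and Ift80 to Rel (0.907). On all 16 arrays, where the gap between resting and stimulated cells sets most of the value, the closest genes were Nfkbia for Nfkb2 (0.993), Usp54 for Rel (0.998), Tnf for Rela (0.995), Bcl2a1d for Relb (0.997) and Tnf for Map3k8 (0.994).

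The other genes of the pathway were read from lists, with the brightest tested probe of each gene. These lists were chosen with earlier results of these data known, so their counts beside all probes are descriptions only. Their counts after stimulation of isoform A cells stand against 31% of all probes called higher and 34.9% called lower, and nothing particular to a list is read from them. Among 7 measured IkB family inhibitors, which retain or modulate the subunits, stimulation with isoform A raised 5 and lowered 2, with a median of 2.07 against 0.00 over all probes. Nfkbid was 3.58 ± 0.11 higher, Nfkbie 3.17 ± 0.08 and Nfkbia 2.27 ± 0.12. Between stimulated groups Nfkbie, encoding IkB epsilon, was the only one of the 7 called in each comparison, although with the mouse as a block 2 were called for isoform A against mock. Nfkbie was 1.01 ± 0.08 higher with isoform A than mock (adjusted p = 5.33e-06), where 2.34% of all probes were called higher. It was 0.50 ± 0.08 higher with isoform B than mock (adjusted p = 0.0033), beside 0.745% of all probes. It was 0.51 ± 0.08 higher with isoform A than isoform B (adjusted p = 0.0108), beside 0.138%. Each difference was positive in 4 of 4 mice. The last call was lost without isoform A mouse 3 (adjusted p = 0.0503).

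Upstream, some transcripts of the signalling chain to IKK rose and others fell. Of 14 measured genes of the list that holds BCL10, MALT1, TAK1 and IKK, stimulation raised 4 and lowered 7 (31% and 34.9% of all probes), with a median of -0.21. Bcl10, the adaptor that binds MALT1, was 1.62 ± 0.09 higher, whereas Prkcq, the protein kinase C form that acts upstream of BCL10 in T cells, fell by 1.69 ± 0.08 and Casp8 fell by 1.47 ± 0.11. None of the 14 was called between stimulated groups, and with the mouse as a block 1 was higher and 1 lower with isoform A than mock. The position of the Malt1 probe relative to the transgene is unknown, so its level says nothing about the groups' labels. Malt1 differed by 0.01 ± 0.13 between stimulated and resting isoform A cells (adjusted p = 0.94).

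Of 10 measured regulators and receptors around NIK and the alternative pathway, 7 were higher and 3 lower after stimulation, beside 31% and 34.9% of all probes, with a median of 0.97. Cd40lg, the ligand of CD40, was 4.78 ± 0.12 higher, and the TNF receptor family genes Tnfrsf9 and Tnfrsf4 were 2.78 ± 0.15 and 2.17 ± 0.08 higher. Birc2, encoding a ubiquitin ligase of the complex that degrades NIK, fell by 1.45 on the log2 scale, and its partner Traf2 fell by 1.12. Both were picked after their values were seen. Traf3 and Birc3 of the same list had no tested probe, so the complex was not read as a whole. With the mouse as a block, 1 of the 10 was also lower with isoform A than mock. In the model without it, Cd40lg alone of the 10 was called between stimulated groups, at 0.76 ± 0.12 for isoform A against mock (adjusted p = 0.00131) and 0.57 ± 0.12 for isoform B against mock (adjusted p = 0.0186, up to 0.0614 when single arrays were left out). Over all probes 2.34% and 0.745% were called higher in these comparisons.

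Genes next to TPL2 and the other MAP3K genes gave no call between stimulated groups. Of 6 measured genes of the TPL2 and ERK list, stimulation raised 2, a share near the 31% of all probes, and lowered 4, beside 34.9%. Tnip2, whose product binds TPL2 and keeps it stable, was 1.97 ± 0.13 higher, and Araf fell by 0.86 ± 0.09. Of 6 measured MAP3K genes other than the members, 3 rose and 3 fell, beside 31% and 34.9% of all probes. Map3k11 was 2.01 ± 0.13 higher and Map3k3 fell by 2.37 ± 0.10. Map3k12, not well above background on any stimulated isoform A array, was at least 4.11-fold lower. It was above background on 4 resting arrays and passed the filter on dim probes through them. Its place among the 3 that fell therefore follows in part from the filter, and no p-value is given for it.

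Downstream, 18 of 20 measured NF-kB target genes rose with stimulation and 1 fell, beside 31% and 34.9% of all probes, with a median of 2.72. The cytokine genes Csf2 and Tnf were 7.59 ± 0.17 and 5.46 ± 0.13 higher. Isoform A against mock called 11 of the 20 higher and none lower, with a median of 0.50, beside 2.34% of all probes. The list was chosen with earlier results of these data known. It shares Nfkbia and Nfkbie with the IkB list and Tnfaip3 with the modifiers below, so the counts of these lists overlap. The activation marker gene Cd83 was 1.52 ± 0.16 higher (adjusted p = 3.84e-05), the chemokine gene Ccl5 1.18 ± 0.24 higher (adjusted p = 0.00999) and Tnf 1.02 ± 0.13 higher (adjusted p = 0.000214). That count fell to 6 when single arrays were left out and to 7 with median scaling. Isoform B against mock called 2 of the 20 higher, where 0.745% of all probes were, Tnf (0.96 ± 0.13, adjusted p = 0.00067) and Nfkbie, with a median of 0.04, and with the mouse as a block 3 were higher and 1 lower. Between the isoforms 3 were called, all higher with isoform A, where 0.138% of all probes were: Nfkbie, Cd83 (0.94 ± 0.16, adjusted p = 0.0203) and Icam1 (0.82 ± 0.15, adjusted p = 0.0303). With the mouse as a block 6 were called, and with single arrays left out the count was 0 to 4.

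Among 11 measured modifiers of NF-kB activity, stimulation raised 2 and lowered 6, beside 31% and 34.9% of all probes. The deubiquitinase gene Tnfaip3, which encodes A20, was 3.53 ± 0.12 higher, and Cyld, another deubiquitinase gene, fell by 1.53 ± 0.10. With isoform A against mock, Tnip1, encoding a partner of A20, was 0.56 ± 0.14 higher (adjusted p = 0.0309) and the acetyltransferase gene Kat5 0.29 ± 0.08 higher (adjusted p = 0.0409). That count of 2 of 11, beside 2.34% of all probes, ranged from 0 to 3 when single arrays were left out.

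**Figure D4:**
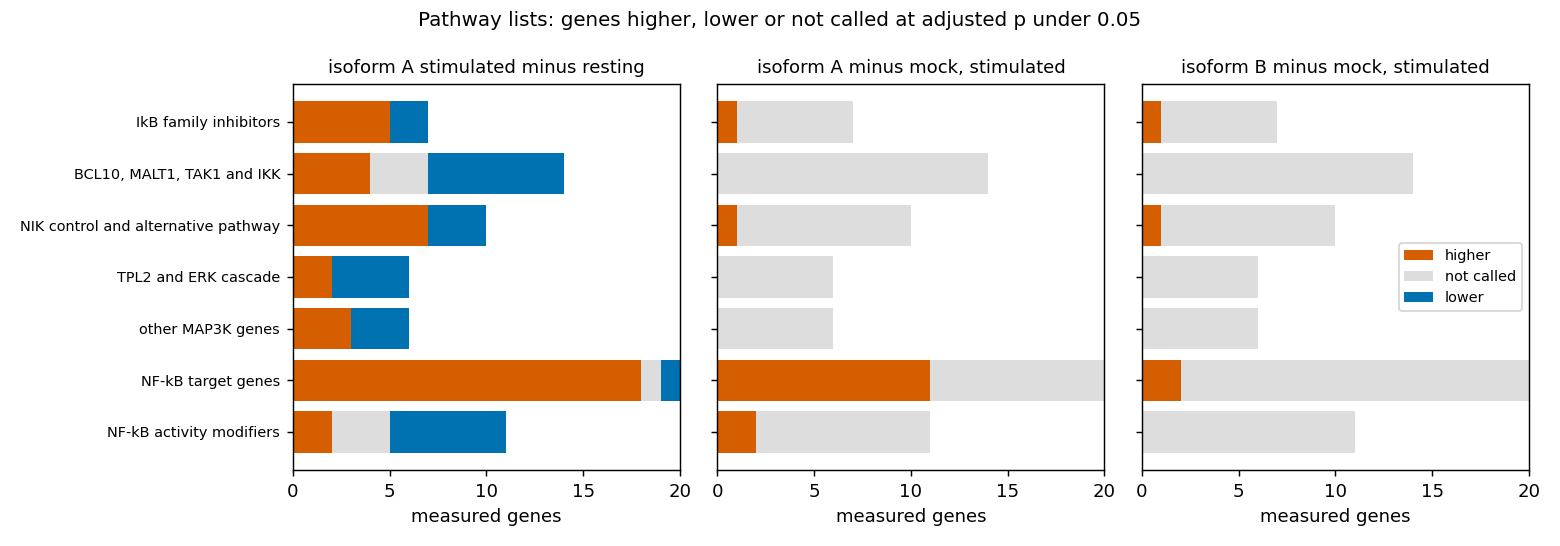
Measured genes of 7 pathway lists (horizontal axis, number of genes) called higher, called lower or not called at an adjusted p under 0.05, in 3 comparisons. In the left panel 18 of 20 NF-kB target genes are higher, in the middle panel 11 of 20, and in the right panel 2 of 20.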

How the data were processed

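Total RNA of 16 portions of CD4-positive T cells from 4 mice was labelled with biotin and hybridised to 1-colour Illumina bead arrays, per the labels' protocols. The deposited unnormalized table holds mean bead intensity per probe on a linear scale and a detection p-value beside each, per the file headers, and was made with GenomeStudio 2011.1, per the submitters' processing notes. The authors' deposited value table was taken as linear intensity from its values, which go down to -20.5 (column medians 8.06 to 8.11). Its probe ranks matched the raw arrays, so no centring was seen, its normalization method is not given in the sources used here, and it served as an alternative.

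Background was corrected from the unnormalized table with limma 3.58.1 in R 4.3.3 (neqc: normexp from the detection p-values, an offset of 16, quantile normalization, log2). Probes with a detection p under 0.05 on at least 4 arrays were tested, 12344 of 25697. Symbols came from the platform annotation, which gave 23978 probes 1 symbol, 0 several and 1719 none. For 23962 probes the gene identifier matched a RefSeq gene table and 0 symbols changed. Pathway lists used the brightest tested probe per gene, and each list names at most the 3 called genes with the largest differences, besides those the text needed. Birc2 and Traf2 were added after their values were seen. Likeness is Pearson r of log2 intensity, with the closest 3 genes sought per member.

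Limma's moderated test was fitted to 4 group means on all 16 arrays, 2-sided, with Benjamini-Hochberg adjustment over all tested probes and a threshold of 0.05, and was tested on simulated data. Replicate numbers stand for mice, so they pair the arrays. Deviations from group means correlated at a mean r of 0.272 within a mouse (0.109 to 0.401, 24 pairs) and -0.09 between mice (72 pairs). Deviations cancel within each group, so the second mean largely follows from the first. A shared mouse and a shared processing run cannot be told apart by these values. The mouse as a block was an alternative, with no background correction, median scaling, the authors' table, no filter on dim probes, a detection p under 0.01 on all arrays, 1 probe per gene, and each array left out. The members and gene lists were chosen with earlier results of these data known. The number of arrays limits the precision.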

Additional observations from a re-analysis of the deposited data

Results flagged for a closer look

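In 2 of 24 tested sets of 4 mice (6 genes in 4 groups), 1 mouse lay far from the other 3, where chance gives about 1 in 20. Rel in stimulated isoform A cells read 10.10 in mouse 4 and 9.80 to 9.81 in the other mice, so that the gap to the nearest was 0.995 of the whole range, and without that array the difference from mock was 0.09 ± 0.13 (adjusted p = 0.82). Map3k14 in stimulated mock cells read 8.20 in mouse 4 and 7.91 to 7.94 in the others, a gap of 0.879 of the range.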

How the results depend on the processing

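No called difference of the 6 genes turned its direction under any alternative run. Among uncalled ones, that of Rel between the isoforms (-0.05) was 0.01 with median scaling and 0.05 without isoform B mouse 4, and that of Map3k8 between the isoforms (0.00) was -0.10 to -0.003 under 5 alternatives. Of 30 differences (6 genes, 5 comparisons), 29 stayed on their side of the threshold with no background correction, the authors' table, no filter on dim probes, 1 probe per gene and the replicate block, and 24 with median scaling, under which the other 6 were no longer called. The stricter filter left out Rel, and 24 of 25 stayed on their side. Isoform A against mock called 5 of the 6 genes, 1 with median scaling and 3 to 5 with single arrays left out, the 3 without mock mouse 3. Over all probes it called 509, 151 with median scaling, 947 with the replicate block and 239 to 644 with arrays left out. Isoform B against mock called 1 of the 6 genes, 0 with median scaling and 2, Rela besides Map3k8, with no background correction, the authors' table, no filter, the stricter filter, 1 probe per gene, the replicate block or without mock mouse 1. Over all probes it called 183, 80 with median scaling, 432 with the replicate block and 111 to 192 with arrays left out. Isoform A against isoform B called 0 of the 6 under every alternative run, and 17 probes in all, 38 with no background correction, 46 with the replicate block and 5 to 27 with arrays left out. Both comparisons with resting cells called 6 of 6 with any array left out, and over all probes 7817 to 8181 for isoform A and 7738 to 8098 for mock. The pairing of arrays by mouse changed no other call among the 6 genes. With median scaling the share of called probes that were higher went from 47.0% to 32.0% for stimulated against resting isoform A cells, from 47.4% to 31.7% for mock against resting and from 50.3% to 33.8% for isoform B against mock. The cause was not tested. Signals near background limit the sizes for Rel and Nfkb2 at rest.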
